A study of Mus musculus with 2 samples.

Results

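The 36 genes described here encode proteins that copy the genome: the MCM helicase and its loading and activating factors, the origin recognition complex, the DNA polymerases with primase, and the sliding clamp with its loader. They were given as a list of gene symbols, by a rule that uses no measured value, although the list was drawn up with earlier results of these data known. All 36 were found among the 21938 protein-coding genes of the annotation (GENCODE M21, mouse build mm10). The assay was ATAC-seq: a transposase enters open chromatin, cuts the DNA there and leaves sequencing adapters, so that peaks mark accessible regions. The study has 1 group, megakaryocyte progenitor cells taken as primary cells from male adult C57BL/6J mice of 5 to 6 weeks, with 50000 cells in each of 2 libraries that the labels number as biological replicates 1 and 2. Both carry the same donor label, no genotype change or treatment is given, and nothing says whether the cells came from separate animals, so differences between the libraries may be technical. With 1 group there is no contrast between conditions, and no test was made: members are described by counts and medians, beside the same over all protein-coding genes.

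Before each S phase, the origin recognition complex, Cdc6 and Cdt1 load the MCM2-7 ring onto DNA at origins, and geminin (Gmnn) blocks Cdt1 so that no origin is loaded again. The kinase Cdc7 with its partner Dbf4, together with Cdc45 and the GINS proteins, turns the loaded ring into an active helicase, and DNA polymerase alpha with primase starts the new strands. In proliferating cells many of these genes are transcribed in late G1 and S phase under E2F transcription factors, and megakaryocytes are known for repeated rounds of replication without cell division as they mature.

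All 36 replication genes had an open region at a promoter, that is, a region whose summit lay within 1 kb of an annotated transcript start of the gene. This held in the conservative list made from both libraries, in the own list of replicate 2 and in that of replicate 1. Over all protein-coding genes the share was 61.7% in the conservative list, 57.9% in replicate 2 and 58.6% in replicate 1. Replication genes had a median of 5 annotated start sites against 3 over all genes, which gives a gene more places at which to score. For promoter signal, width, summits and letters at the summit, all genes means the genes with a promoter region in the list used. Values below are from the conservative list unless a replicate is named; signal is the authors' peak-caller value at the strongest summit, with no scaling between libraries stated and no sequencing depth given.

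The sequences below are shown because they carry the letters that set these promoters apart in counts. The search was for 4 spellings of the E2F site (TTTCCCGC, TTTCGCGC, TTTGCCGC and TTTGGCGC) and for CCAAT, the core of the NF-Y site, on both strands. The stretches are read 5′ to 3′ along the gene, taken from RefSeq promoters of build GRCm38.p6 (28 of 36 members matched by symbol), and capitals mark E2F and CCAAT letters. Spellings may overlap, as in the runs of 12 capitals at Mcm5 and Mcm6.
Mcm5: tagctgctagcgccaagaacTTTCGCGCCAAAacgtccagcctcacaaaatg
Mcm6: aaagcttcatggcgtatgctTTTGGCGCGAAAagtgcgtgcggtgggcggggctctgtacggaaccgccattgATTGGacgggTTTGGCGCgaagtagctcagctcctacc
Orc1: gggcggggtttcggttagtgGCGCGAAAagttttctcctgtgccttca
Orc3: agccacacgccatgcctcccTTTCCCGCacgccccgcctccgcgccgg
Cdc6: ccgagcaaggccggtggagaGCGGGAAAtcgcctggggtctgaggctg
Gins3: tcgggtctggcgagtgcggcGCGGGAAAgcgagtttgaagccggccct
Pola1: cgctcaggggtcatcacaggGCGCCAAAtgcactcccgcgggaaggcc
Rfc3: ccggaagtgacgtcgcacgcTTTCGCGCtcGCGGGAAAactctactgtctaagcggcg
The Mcm5 stretch is chr8:75109336-75109387 on the plus strand, and the Mcm6 stretch, with 3 E2F spellings and 1 of its CCAAT boxes, is chr1:128359725-128359835 on the minus strand. Orc1 is shown at chr4:108579407-108579454 on the plus strand, and Orc3 at chr4:34614956-34615003 on the minus strand. The Cdc6 stretch is chr11:98907993-98908040 on the plus strand, and that of Gins3 is chr8:95633498-95633545 on the plus strand. Pola1 is shown at chrX:93632266-93632313 on the minus strand, and Rfc3, whose pair of sites meets its start, at chr5:151651181-151651238 on the minus strand.

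In these RefSeq promoters, which run from 250 bases before to 50 after the start, 13 of the 28 matched replication genes held an E2F spelling, against 2.26% of all 32851 sequences in the table. All 19 E2F spellings found in them lay inside an open region of the conservative list. The 300 bp searched are short beside a median promoter region of 960 bp, so this was likely for any letters near the start. The first site of Pola1 was 48 bp from the nearest summit, that of Orc3 60 bp, that of Orc1 64 bp and that of Cdc6 286 bp. Over the 13 genes the first site lay within 100 bp of a summit in 8. The like share for other letters or other genes is not given, so the count does not show that sites gather at summits. The Cdc6 site shown is not the one counted at its summit below, which lies 114 bp from the summit and outside the RefSeq window. A match is a description of letters and not a measured binding site.

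The promoter signals of the replication genes lay somewhat above the middle of all genes and ranged widely. Their median was 12.7 against 11.4 over the 13540 genes with a promoter region, and 25 of 36 were above that all-gene median. In replicate 2 the medians were 12.5 for replication genes and 11.4 for all genes, and in replicate 1 they were 11.5 and 10.7. The median member stood at percentile 62.5; 4 members were above percentile 90, 14 above percentile 75 and 3 below percentile 25. The median -log10 p of the regions was 186 for replication genes and 137 for all genes.

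**Figure D1:**
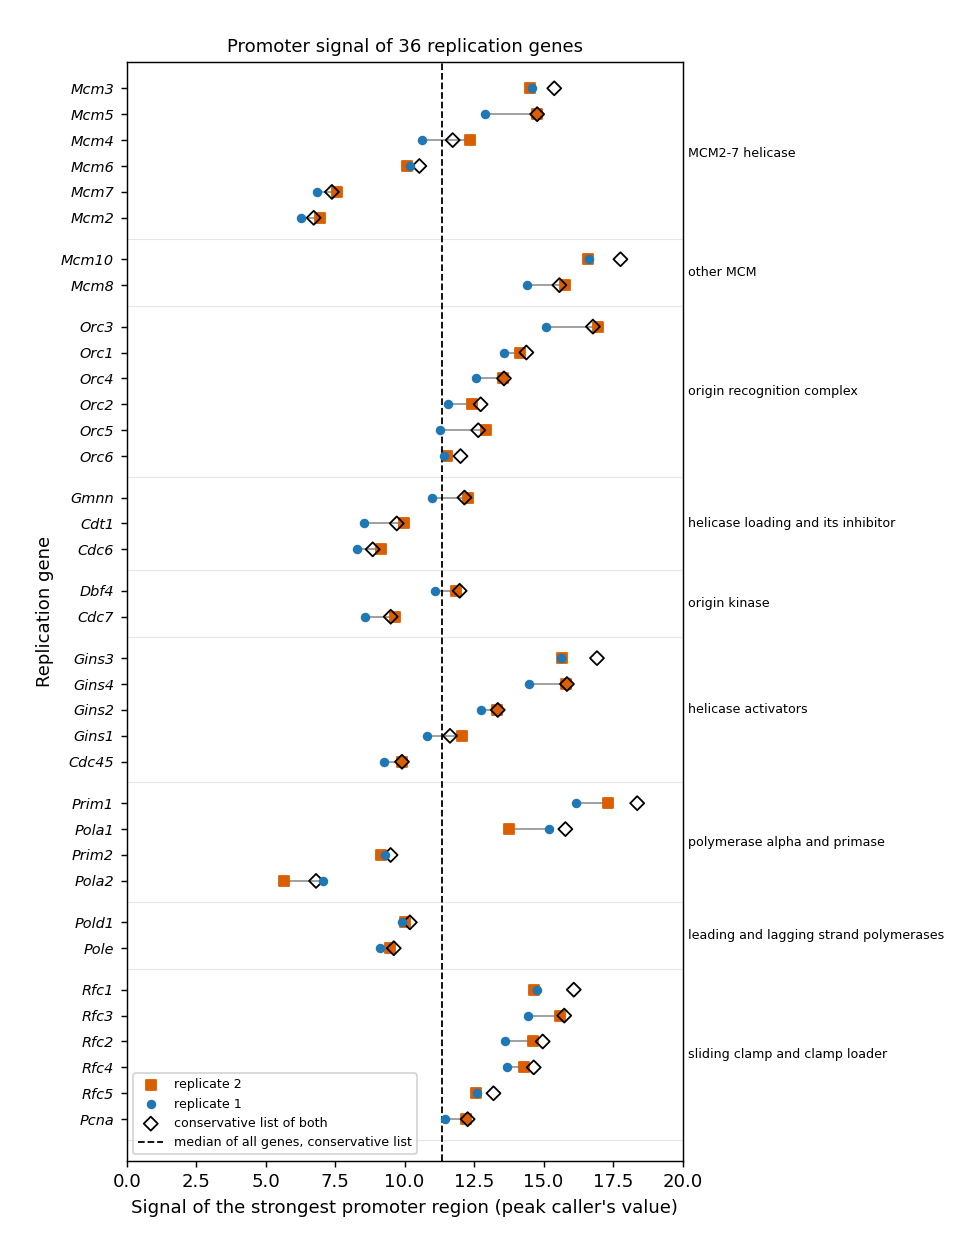
Signal of the strongest promoter region (horizontal axis, the peak caller's value) of each of the 36 replication genes, grouped by role, in replicate 2 (squares), replicate 1 (circles) and the conservative list of both (open diamonds). The dashed line is the all-gene median of the conservative list, 11.4; Prim1 is highest at 18.4 and Mcm2 lowest at 6.73.

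The highest signals came from genes of several roles. Prim1, the catalytic subunit of primase, had 17.3 in replicate 2, 16.2 in replicate 1 and 18.4 in the conservative list. Mcm10, which binds the active helicase, had 16.6 in both replicates and 17.8 in the conservative list. Gins3, a GINS subunit, had 15.7 in replicate 2, 15.6 in replicate 1 and 16.9 in the conservative list. For these genes both libraries placed the promoter above the all-gene medians. Orc3, an origin recognition subunit, had 16.9 in replicate 2 and 15.1 in replicate 1. Rfc1, the large subunit of the clamp loader, had 14.6 in replicate 2 and 14.8 in replicate 1. Gins4 had 15.8 in replicate 2 and 14.5 in replicate 1. The order among these 6 genes does not hold in both libraries: Orc3 passed Mcm10 in replicate 2 and was below it in replicate 1.

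The lowest signals included a pair of MCM2-7 subunits and a pair of polymerase alpha and primase subunits. Mcm2 had 6.96 in replicate 2 and 6.28 in replicate 1. Pola2, the accessory subunit of polymerase alpha, had 5.66 in replicate 2 and 7.07 in replicate 1. Mcm7 had 7.57 in replicate 2 and 6.84 in replicate 1. These 3 genes were below every other member in both libraries. Cdc6, the loader of MCM2-7, had 9.15 in replicate 2 and 8.29 in replicate 1. Prim2, the large primase subunit, had 9.15 in replicate 2 and 9.30 in replicate 1. Cdc7 had 9.65 in replicate 2 and 8.56 in replicate 1. Partners in 1 enzyme thus lay far apart: Prim1 and Prim2 form primase, and Pola1, the catalytic subunit of polymerase alpha, had 13.8 in replicate 2 and 15.2 in replicate 1.

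By role, the clamp and its loader were the most even of the larger groups. Pcna, the sliding clamp, and Rfc1 to Rfc5 had a median of 14.8 and a range of 12.3 to 16.1, all above the all-gene median. The 6 origin recognition genes had a median of 13.2 and a range of 12.0 to 16.8, also all above it. The 6 MCM2-7 genes had a median of 11.1 and ranged from 6.73 to 15.4, with Mcm3 highest. The 5 helicase activators had a median of 13.4, from Cdc45 at 9.90 to Gins3. Polymerase alpha and primase, 4 genes, had a median of 12.6 and the widest range, 6.81 to 18.4. Below the all-gene median lay the loading genes Cdc6 and Cdt1, at 8.85 and 9.72, while their inhibitor Gmnn had 12.2. Pold1 and Pole, the catalytic subunits of the lagging and leading strand polymerases, had 10.2 and 9.61. Cdc7 had 9.50 and its partner Dbf4 12.0, and Mcm8, a relative of the MCM2-7 subunits, had 15.6.

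The libraries ordered the replication genes alike. Signal in the replicates correlated with Spearman's rho of 0.953 over the 36 genes, which share both libraries, and with the same rho of 0.953 over the 12029 genes with matched regions. The SD between replicates had a median of 0.578 over members, and the SD of the mean signal over members was 2.82. Replicate 2 was above replicate 1 in 28 of 36 members, against 78.1% of the 12029 matched genes. The median log2 ratio of replicate 2 over replicate 1 was 0.10 in members and 0.09 over the matched genes. The largest departures from the median of the matched genes were Pola2 and Pola1, at -0.41 and -0.23, followed by Cdt1 at 0.13. Of the matched genes, 0.931% departed at least as far as Pola2 and 7.54% as far as Pola1. By the SD between replicates, which weighs high signals more, Orc3 and Mcm5 were highest with 1.32 each, while Pola2 had 0.992. Mcm4 at 1.20 and Orc5 at 1.16 came next. These SDs keep the general offset between libraries. The log2 ratios of Orc3 and Mcm5, 0.169 and 0.195, lay within the SD of 0.132 about the median of the matched genes.

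Replication promoters were open over somewhat longer stretches than promoters at large. The strongest region had a median width of 960 bp in replication genes and 854 bp over all genes. In replicate 2 the widths were 844.5 and 753 bp, and in replicate 1 they were 913 and 800 bp. A region with 2 or more summits was found in 27 of 36 members, against 69.7% of all genes. The summit lay upstream of the nearest start in 30 of 36, against 75% of all genes, and within 150 bp of it in 33 of 36, against 74.1% of all genes. The median distance was 57.5 bp in members and 64 bp over all genes.

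**Figure D2:**
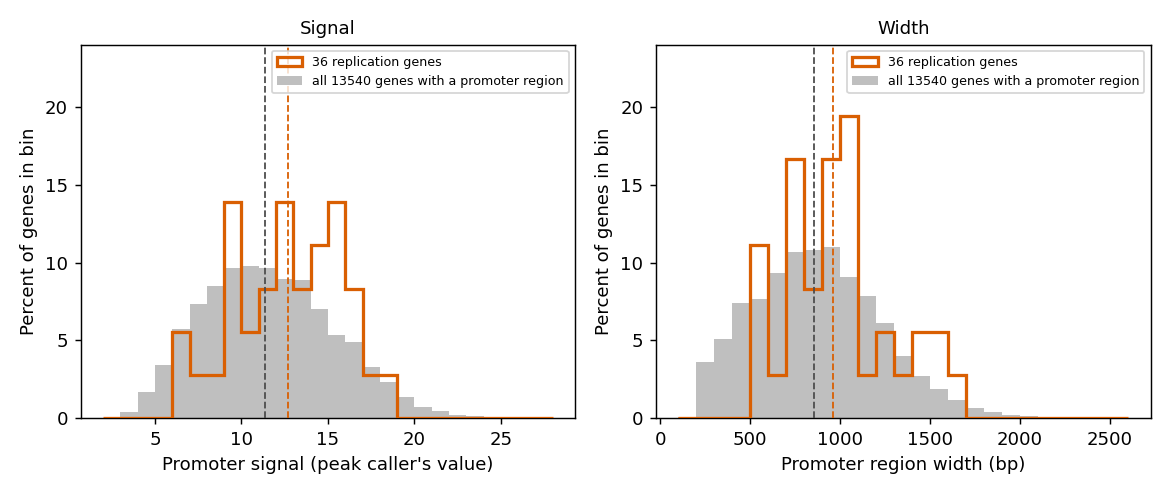
Percent of genes per bin of promoter signal (left, the peak caller's value) and promoter region width (right, bp) for the 36 replication genes (orange outline) and all 13540 genes with a promoter region (grey). Dashed lines are the medians, 12.7 and 11.4 for signal and 960 and 854 bp for width.

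The 5 widest replication promoters were those of Mcm7 at 1662 bp, Orc4 at 1536 bp, Mcm4 at 1509 bp, Cdc45 at 1493 bp and Pole at 1404 bp. In the single libraries some of these regions were much shorter: Mcm7 had 815 bp in replicate 2 and 1319 bp in replicate 1, and Orc4 had 931 bp in replicate 2 and 841 bp in replicate 1. Each of the 5 had the 5′ end of another protein-coding gene on the opposite strand close by, against 3 of the 5 widest in each replicate, where Mcm6 and Prim2, without such a neighbour, took their place beside Mcm4 and Orc6. Such a divergent 5′ end within 1 kb, with the genes pointing apart or overlapping at their starts, was annotated for 11 of 36 members, against 10.9% of all protein-coding genes and 16.7% of those with a promoter region. Members with a partner had a median width of 1310 bp and those without 905 bp, while over all genes the widths were 1021 and 822 bp. In replicate 2 the member medians were 1012 and 763 bp and those of all genes 892 and 724 bp. In replicate 1 the member medians were 1037 and 867 bp and those of all genes 958 and 768 bp.

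Divergent partners were annotated for 4 of the 6 origin recognition genes. Orc1 lay 87 bp from Prpf38a, which encodes a splicing factor, and Orc3 lay 13 bp from Rars2, the mitochondrial arginyl-tRNA synthetase. Orc4 overlapped Mbd5 with 5′ ends 769 bp apart, and Orc6 overlapped Vps35, which encodes a retromer subunit, with 5′ ends 170 bp apart. The other partners were Prkdc (466 bp from Mcm4), Ap4m1 (an overlap of 420 bp with Mcm7), Trmt6 (86 bp from Mcm8), Slc25a40 (134 bp from Dbf4), Ufd1 (an overlap of 208 bp with Cdc45), Abhd12 (659 bp from Gins1) and Pxmp2 (120 bp from Pole). Prkdc encodes the catalytic subunit of a DNA repair kinase and Trmt6 a tRNA methyltransferase subunit. In the conservative list the member's strongest region held both 5′ ends in 10 of these 11 pairs, all but Gins1 and Abhd12. It held both in 9 pairs in replicate 2, where Orc4 also failed, and in 8 in replicate 1, where Orc4 and Mcm7 did. In the shared regions the signal cannot be assigned to either gene.

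**Figure D3:**
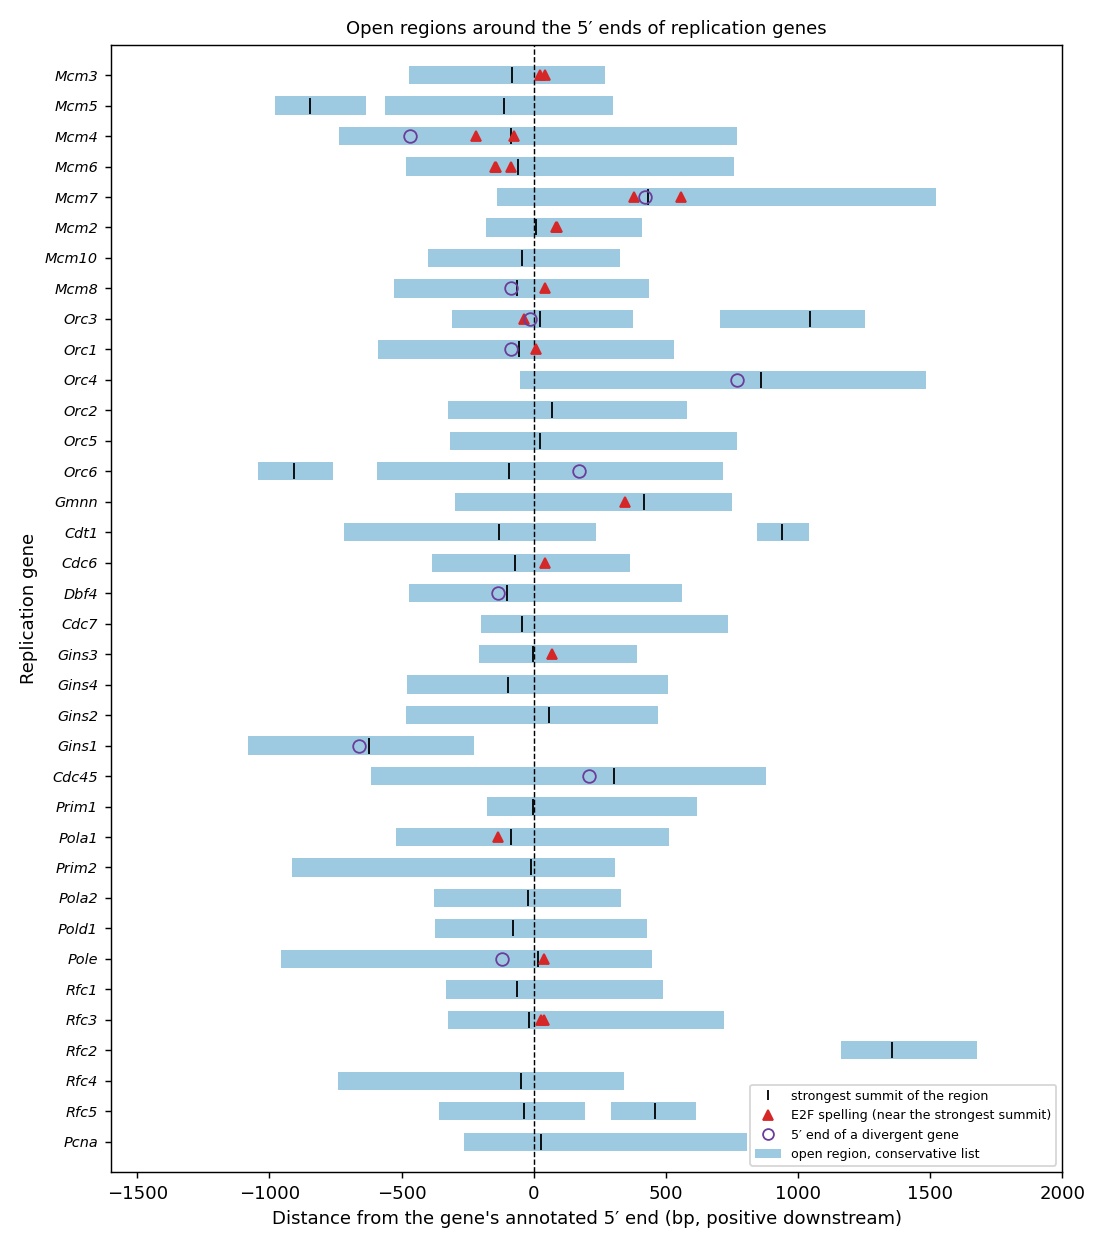
Open regions of the conservative list (blue bars) with their strongest summits (black ticks), E2F spellings in the 301 bp searched around the strongest summit (red triangles) and 5′ ends of divergent genes (purple circles), against distance from each replication gene's annotated 5′ end (bp, positive downstream), in order of role and signal. The bars of 33 of 36 genes cover the 5′ end with their strongest region; the strongest regions of Gins1 and Rfc2 lie to one side, and that of Mcm5 is beyond the axis.

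In 3 members the strongest region of the conservative list did not hold the gene's 5′ end; it did in 32 members in replicate 2 and 31 in replicate 1. For Mcm5 it lay 10371 bp downstream, 960 bp from the start of a transcript that is not protein-coding, and had 14.8 in replicate 2 and 12.9 in replicate 1; the region at the Mcm5 5′ end had 12.2 in replicate 2 and 11.0 in replicate 1. For Rfc2 it lay 1357 bp downstream of the outermost 5′ end and 33 bp from the start of another protein-coding transcript. For Gins1 it lay 622 bp upstream of the start of a transcript that is not protein-coding, and only 37 bp from the start of Abhd12. It was also the strongest promoter region of Abhd12. The next Gins1 region, 4424 bp downstream, had a signal of 11.1. Of the Gins1 regions only this one lay within 1 kb of the start of a protein-coding Gins1 transcript, at 230 bp.

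E2F spellings were found at 14 of 36 replication promoters, within 150 bp of the strongest summit, against 4.25% of all genes with a promoter region. The 14 genes were Mcm2, Mcm3, Mcm4, Mcm6, Mcm7, Mcm8, Orc1, Orc3, Cdc6, Gmnn, Gins3, Pola1, Pole and Rfc3. They include 5 of the 6 MCM2-7 genes; the exception, Mcm5, was searched at its downstream region, and its 5′ promoter holds the pair printed above. Mcm6 had 3 spellings, and Mcm2, Mcm3, Mcm4, Mcm7 and Rfc3 had 2 each. The 21 spellings made 19 sites that did not overlap each other, and 16 of the 21 lay within 100 bp of the nearest start. As only 150 bp each side of the summit were searched, and summits lay near starts, closeness to the start was largely set beforehand. Members with a spelling had a median signal of 13.3 and those without 12.7, while over all genes the medians were 11.7 and 11.3.

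CpG content was also higher at these promoters. The 301 bp at the summit held a median of 27.5 CpG in replication genes and 22 over all genes, and the ratio of observed to expected CpG was 0.935 and 0.770. Among all genes the share with an E2F spelling was 1.52%, 4.17%, 5.81% and 5.61% in 4 classes of similar size, from the lowest to the highest CpG count. In the same classes 1 of 2, 1 of 5, 7 of 15 and 5 of 14 members had one. The share in members was thus above that of all genes in each class, though the lower classes hold few members, and the lowest count of all, 1 CpG, belongs to the downstream region of Mcm5.

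Of the other spellings, CCAAT was present in 22 of 36 members, against 38.8% of all genes with a promoter region. It had 4 copies at Cdc45 and 3 each at Mcm3, Mcm7 and Mcm10. Both E2F and CCAAT were present at 11 members, against 1.95% of all genes, and 1 E2F site overlapped a CCAAT box. The SP/KLF letters GGGCGG were in 28 of 36 members, against 62.9% of all genes. The ETS spelling CCGGAAGT was in 6 members, against 8.23% of all genes: Mcm10, Orc3, Gins3, Gins4, Rfc3 and Rfc4. The CHR spellings TTTGAA and TTCGAA, known from cell cycle genes, were in 6 (16.7%), against 11.6% of all genes. The E-box CACGTG was in 6 (16.7%), against 10.1%. The NRF1 spelling CGCATGCG was in 2 (5.56%) against 3.32%, and the YY1 spelling AAGATGGC in 2 (5.56%) against 5.24%. The CRE TGACGTCA was in 1, Orc5 (2.78%), against 3.43%. Such small counts do not separate these spellings from the background. The GATA letters AGATAA were in 0 of 36, against 6.28% of all genes.

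**Figure D4:**
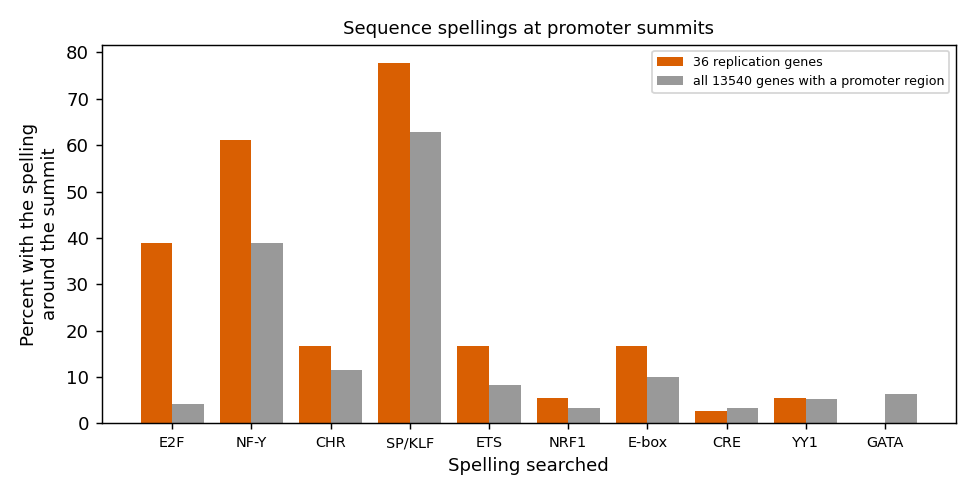
Percent of promoters with each spelling in the 301 bp around the strongest summit, for the 36 replication genes (orange) and all 13540 genes with a promoter region (grey). E2F is the widest gap in percentage points, with 38.9% of replication genes and 4.25% of all genes.

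Away from promoters, replication genes had about as many open regions as other genes. Distal regions were those with a summit within 50 kb of the gene's 5′ end and not within 1 kb of any protein-coding start. Members had a mean of 4.36 ± 3.24 and all genes 3.95 ± 3.29 (SD over genes). In replicate 2 the means were 3.25 and 2.84, and in replicate 1 they were 3.39 and 2.91. At least 1 was found near 33 of 36 members, against 81.6% of all genes. Mcm8, Orc1 and Orc3 had none in the conservative list or in either replicate. All 3 of these have a divergent partner less than 100 bp away. The distal counts of all genes with so near a partner are not given, and a link was not tested. In the replicated list, which holds more regions, Orc3 had 3, Mcm8 1 and Orc1 0. The 0 of Orc3 in the conservative list also depends on which starts count. A region 37715 bp downstream of its 5′ end, with a signal of 6.40, counted as a promoter region through a transcript that is not protein-coding.

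**Figure D5:**
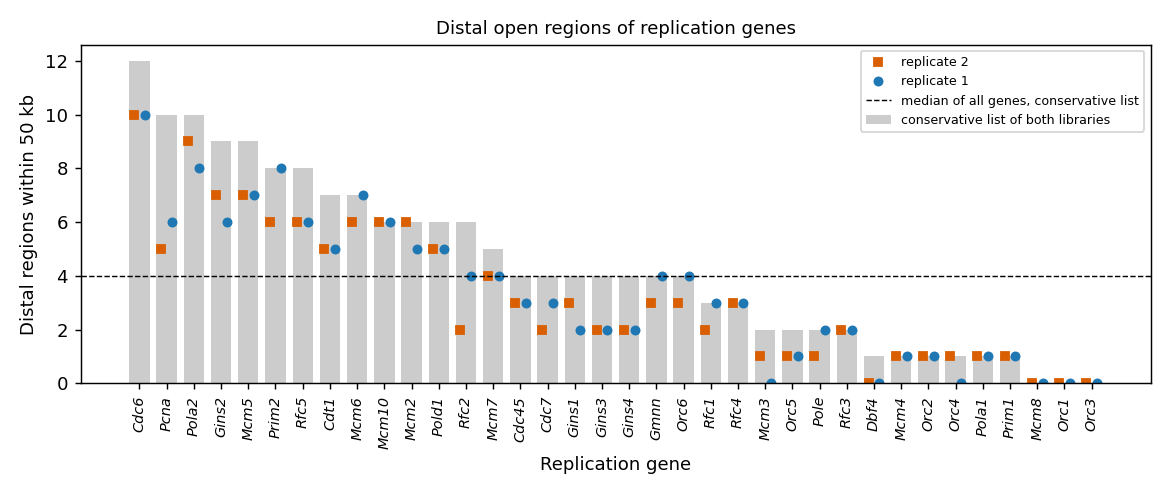
Number of distal open regions within 50 kb of each replication gene's 5′ end in the conservative list (grey bars), replicate 2 (squares) and replicate 1 (circles), sorted by the conservative count. The dashed line is the all-gene median of 4; Cdc6 is highest with 12.

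Cdc6 had the most distal regions, 12 in the conservative list and 10 in each replicate. Pola2 had 10, with 9 in replicate 2 and 8 in replicate 1. Pcna also had 10, with 5 in replicate 2 and 6 in replicate 1. The count for Pcna thus rests more on the pooled list than that for Cdc6. Mcm5 had 9, with 7 in each replicate, and Gins2 had 9, with 7 in replicate 2 and 6 in replicate 1. The origin recognition genes had few, 8 in all over 6 genes, while the loading genes Cdc6, Cdt1 and Gmnn had 23 over 3. The 8 leave out regions that count as promoter regions through transcripts that are not protein-coding. At Orc4 such a region lay 41216 bp downstream of the 5′ end, with a signal of 13.4.

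The 157 distal regions near members had a median signal of 7.96, against 8.74 over all 63481 distal regions, and a median width of 410 bp against 419 bp. Of them 87 lay in introns, 61 between genes and 9 in exons, and 105 were matched in both replicates while 32 were matched in neither. The nearest protein-coding 5′ end was the member's own for 61. The like shares over all distal regions are not given, so these counts of place and match do not set regions near members apart. E2F spellings were in 0 of the 157 within 75 bp of the summit, against 0.458% of all distal regions, and AGATAA was in 17.8%, against 13.8% of all distal regions.

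The strongest distal region had its summit at -29641 bp from the Gmnn 5′ end (upstream), at chr13:24791342-24791776, between genes and nearer to BC005537, with 20.7 in replicate 2 and 18.8 in replicate 1. The next lay 35795 bp upstream of Rfc3 at chr5:151686391-151687396, with 18.3 in replicate 2 and 17.6 in replicate 1. Another lay 14447 bp upstream of Gmnn, with 15.2 in replicate 2 and 17.1 in replicate 1. These regions exceeded the promoter signals of the genes they lie near, and the list does not show which gene, if any, they act on. A region 28323 bp downstream of the Mcm4 start, nearer to Ube2v2, had 14.7 in replicate 2 and 15.0 in replicate 1. A region in an intron of Dars, 27010 bp upstream of Mcm6, had 15.1 in replicate 2 and 15.8 in replicate 1.

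Across the replication genes, promoters with higher signal tended to have fewer distal regions around them. Spearman's rho was -0.44 over the 36 members, with -0.44 in replicate 2 and -0.43 in replicate 1, and -0.25 over all 13540 genes with a promoter region. These are correlations across genes that share the same libraries, and genes are not independent replicates. Cdc6 and Pola2, with low promoter signal and many distal regions, and Orc3 and Prim1, with high signal and 0 and 1, follow this tendency. The 0 of Orc3 rests on which starts count, as said above. Other genes do not follow it: Mcm10 and Gins3, with signals of 17.8 and 16.9, had 6 and 4 distal regions. Pole, with a signal of 9.61, had 2.

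Other genes of the replication pathway were listed apart from the 36. They include the cell cycle regulators Ccne1, Ccne2, Cdk2 and Cdc25a and the transcription factor genes E2f1, E2f2 and E2f3. Of 49 listed, 48 were found in the annotation. All 48 had a promoter region in the conservative list and in replicate 2, and 47 in replicate 1. Over all protein-coding genes these shares were 61.7%, 57.9% and 58.6%. Their median signal was 11.5, close to that of all genes, and 18 of 48 had an E2F spelling, against 4.25% of all genes. Ticrr, which helps to load Cdc45, was highest at 18.4, followed by Rpa2 and Rpa1, subunits of the single-strand binding protein, at 18.3 and 17.6. Tk1, thymidine kinase, was lowest at 5.37 and was the gene without a region in replicate 1.

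As a check on the labelled cell type, 16 of 18 listed megakaryocyte lineage genes had a promoter region in the conservative list, against 61.7% of all genes. In each replicate it was 11 of 18, near the 57.9% and 58.6% of all genes in replicates 2 and 1, so that the single libraries did not set these genes apart. Gp1ba and Itga2b, platelet receptor genes, had signals of 13.9 and 12.6, while Fli1, a transcription factor gene, had no promoter region and 21 distal regions. The median of the list was 5.99, lower than that of the replication genes, and its mean of 8.78 distal regions was higher than their 4.36. Of the markers of other cells, 5 of 6 erythroid, 5 of 6 granulocyte, 3 of 5 monocyte, 2 of 4 mast cell, 3 of 5 B cell, 1 of 5 T cell and 1 of 5 stem cell genes had a promoter region, beside the same 61.7%. The median signals of those with one were 16.5 for B cell, 15.6 for monocyte and 11.6 for erythroid genes, all above the 5.99 of the megakaryocyte list, and 11.8 for the single T cell gene, 8.79 for the single stem cell gene, 8.49 for mast cell and 6.16 for granulocyte genes. The part of such cells in the replication gene values was not tested, and open chromatin does not measure how much of a gene is transcribed or how many cells were cycling.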

How the data were processed

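ATAC-seq peak lists of 2 libraries, labelled as replicates of 1 group, were analysed. The authors deposited lists of summits on mm10 with a signal value and a -log10 p per summit; per the deposited notes, the conservative list passed an irreproducible discovery rate threshold across both libraries. The aligner, peak caller and its versions, duplicate handling and transposase shift are not stated in the labels or headers, and depth is unknown.

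From these, summits sharing an interval were merged into 1 region that kept its strongest summit's signal. The conservative list held 80938 regions, replicate 2 60098 and replicate 1 61735. Promoter regions (summit within 1 kb of any annotated start), distal regions (within 50 kb of the 5′ end, over 1 kb from protein-coding starts), divergent 5′ ends and letters in 301 bp at the summit were counted with Python 3.11.15, numpy 2.4.6 and pysam 0.24.0 on GENCODE M21 and GRCm38.p6, in scripts checked on simulated data. Replicate regions were matched at 50% overlap of either. Named genes were the 6 highest and 6 lowest by signal, the 5 widest, the 5 with most and those with no distal regions. They also included the 3 largest replicate differences, the members with most E2F spellings and the divergent partners. The 3 highest other replication pathway genes and the neighbours of the 5 strongest distal regions were named as well. Further genes were named after their values were seen. The members and lists were chosen with earlier results of these data known. No p-values were computed. Alternatives were other lists, windows and spellings, and each replicate alone.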

Additional observations from a re-analysis of the deposited data

How the results depend on the processing

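Members with a promoter region numbered 32 in the stronger 50% of regions, against 45.5% of all genes there, and 36 under each other alternative run, against 57.9% to 69.5%. Members with an E2F spelling numbered 10 within 75 bp of the summit, against 2.06% of all genes, and 17 within 250 bp, against 6.11%; the other alternatives lay between. The median signal percentile of members was 66.7 in the replicated list, 66.4 in the pseudoreplicated list, 56.4 in the stronger 50% of regions and 60.2 with a promoter window of 0.5 kb, and 59.4 to 61.1 with 1 replicate alone. With 1 replicate alone the median signal was 11.5 to 12.5 and the median width 844.5 to 913 bp. The median summit distance was 61.5 bp with a window of 2 kb. The mean number of distal regions per member was 4.19 in the IDR-thresholded, 8.14 in the replicated and 8.06 in the pseudoreplicated list. Over all genes these means were 3.91, 6.82 and 6.60. In the stronger 50% of regions the mean was 1.83 for members and 1.77 for all genes. With 1 replicate alone it was 3.25 to 3.39 for members and 2.84 to 2.91 for all genes. The member mean was 1.75 within 20 kb, 9.03 within 100 kb and 5.89 with neighbours' promoters kept. Counting starts of protein-coding transcripts only, chosen after seeing the data, gave 4.78. With genes of any type, 18 members had a divergent start, against 18.4% of all protein-coding genes and 26.5% of those with a promoter region. The cause of these shifts was not tested, beyond the sizes of the lists and windows themselves. No paired analysis was possible because there is 1 group, and the depth is unknown, so a region not listed is not shown to be closed.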
